A study of Arabidopsis thaliana with 12 samples.

Results

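The regions described here are 480 windows of 500 bp in the flanks of the Arabidopsis pericentromeres whose small RNA score in nrpe1, the mutant of the largest subunit of RNA polymerase V, was at most 0.5 of wild type. They were chosen on the mean of the nrpe1 to wild-type ratios of both repeats, within 9 flanks of 2 Mb on the 5 chromosomes. They make up 48.4% of the 991 flank regions listed in both deposited tables and 11.4% of all 4213 regions listed in both. Small RNAs of 10-day-old Arabidopsis thaliana seedlings were sequenced in 12 libraries, 2 repeats of each of 6 genotypes, and each repeat has a table of its own. The groups were wild type, nrpd1-/-, nrpe1-/-, the triple mutant arid2-/-arid3-/-arid4-/- (arid2/3/4), the double mutant epcr1-/-epcr2-/- (epcr1/2) and hda6. Both hda6 libraries are named so in their titles, which were followed, although the genotype of repeat 1 reads had-/- and that of repeat 2 hda6-/-. No mutant allele or transgene is named in the labels used here, and messenger RNA of the mutated genes was not analysed here. Whole seedlings were used, so fewer cells holding a small RNA and less of it per cell cannot be told apart.

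In plants, RNA polymerase IV makes the precursors of heterochromatic small interfering RNAs. RNA polymerase V makes transcripts at the target loci, with which the loaded small interfering RNAs pair to direct DNA methylation, and at many loci this feeds back on the production of the small RNAs. ARID and EPCR proteins are subunits of the PEAT complexes, and HDA6 is a histone deacetylase that acts in silencing of transposons and ribosomal DNA.

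The sequences of 5 of these regions are shown because the results turn on them. All were read from the plus strand of RefSeq TAIR10.1, whose nuclear chromosomes have the coordinates of the TAIR10 build used for the files. The first pair is the member that scored highest in wild type, upstream of the gene MTSSB, and the next highest, on another chromosome. They share 44 words of 24 bases, and capitals mark the bases that lie in words found in the other region on either strand.
chr4:6757707-6757978: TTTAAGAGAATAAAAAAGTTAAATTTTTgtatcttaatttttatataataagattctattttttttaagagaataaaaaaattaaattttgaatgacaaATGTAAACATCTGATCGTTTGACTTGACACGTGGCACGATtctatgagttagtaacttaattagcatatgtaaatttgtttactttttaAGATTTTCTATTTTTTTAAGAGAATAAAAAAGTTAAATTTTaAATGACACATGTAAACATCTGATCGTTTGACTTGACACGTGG
chr5:10270388-10270487: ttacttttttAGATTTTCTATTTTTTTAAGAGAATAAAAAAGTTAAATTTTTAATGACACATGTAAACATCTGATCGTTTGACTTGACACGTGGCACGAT
In the other 3, capitals mark G and C, so that the base composition can be read by eye in the middle 200 bases of each region. The first had the largest negative difference in arid2/3/4, the second was higher in epcr1/2, and the third was higher in hda6.
chr5:14123651-14123850: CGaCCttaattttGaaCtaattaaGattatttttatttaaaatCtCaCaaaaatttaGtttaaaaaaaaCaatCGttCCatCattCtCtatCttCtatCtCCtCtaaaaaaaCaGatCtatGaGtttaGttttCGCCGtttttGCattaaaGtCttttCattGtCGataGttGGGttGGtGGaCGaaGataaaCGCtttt
chr2:5942151-5942350: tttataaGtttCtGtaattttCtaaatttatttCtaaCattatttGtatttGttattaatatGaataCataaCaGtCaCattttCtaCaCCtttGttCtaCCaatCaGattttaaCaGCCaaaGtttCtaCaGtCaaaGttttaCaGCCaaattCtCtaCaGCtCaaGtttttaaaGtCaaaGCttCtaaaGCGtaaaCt
chr3:11689151-11689350: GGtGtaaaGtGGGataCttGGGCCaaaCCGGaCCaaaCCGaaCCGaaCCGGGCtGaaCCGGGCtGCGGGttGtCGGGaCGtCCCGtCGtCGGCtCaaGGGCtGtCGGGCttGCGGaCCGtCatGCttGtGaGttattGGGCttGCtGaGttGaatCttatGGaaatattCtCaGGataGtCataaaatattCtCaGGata
G and C made up 29.0% of the first of these 3 stretches, 27.0% of the second and 53.0% of the third. The second region is not typical in this, since its GC content of 25.6% was the lowest of the 18 members higher in epcr1/2. Their median was 40.5%.

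The scores were taken here as normalized abundances that the authors rounded to whole numbers. The sources used here give neither their scaling nor the library depths, so no counting interval can be stated. Over the 480 regions the median score was 235 and 180 in the repeats of wild type and 50 and 33 in nrpe1. It was 1 and 0 in nrpd1, the mutant of the largest subunit of RNA polymerase IV. The arid2/3/4 medians were 136 and 149, those of epcr1/2 were 159 and 173.5, and those of hda6 were 156 and 146. The medians of the last 3 mutants thus lay between those of nrpe1 and wild type in both repeats. The low place of nrpe1 in this order follows from the choice of the regions. Wild type was higher in repeat 1 than in repeat 2 in 410 of the 480 regions, so medians against wild type are also given per repeat below. The model fitted below has a single repeat term for all genotypes, so it does not take up a shift of wild type alone.

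**Figure D1:**
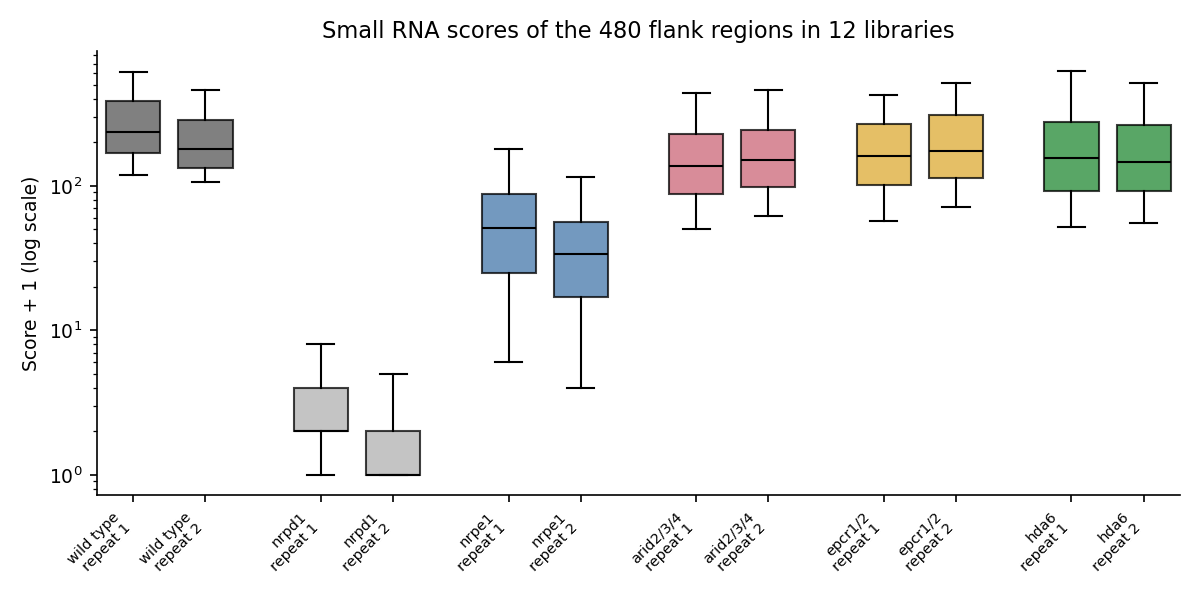
Boxes give the median and quartiles, and whiskers the 5th and 95th percentiles, of score + 1 (log scale) over the 480 regions in each of the 12 libraries. The nrpd1 boxes lie at the bottom, nrpe1 is lower than wild type because the regions were chosen so, and arid2/3/4, epcr1/2 and hda6 have medians of 136 to 173.5 against 180 and 235 in wild type.

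The share of a library's summed score over all 4213 regions that fell in these 480 does not depend on the scaling of the library. That share was 11.6% and 10.9% in the repeats of wild type and 3.15% and 2.92% in nrpe1. It was 5.15% and 4.92% in arid2/3/4 and 5.64% and 5.70% in epcr1/2, and 10.1% and 9.72% in hda6. The shares in both PEAT mutants were therefore below those in hda6 and wild type in each repeat, with no overlap between the groups. The hda6 shares lay just below the wild-type shares. A share also falls where the sum over all regions is larger, as it was in the PEAT mutants. Over all regions the scores summed to 1260502 and 1016199 in wild type and 1038010 and 1019940 in hda6. They summed to 1698720 and 1954866 in arid2/3/4 and 1684787 and 1920441 in epcr1/2. Over the members alone the sums were 146437 and 110741 in wild type and 105141 and 99114 in hda6. Those of arid2/3/4 were 87551 and 96130, and those of epcr1/2 were 95075 and 109419.

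The ratio of nrpe1 to wild type, which chose the regions, had a median of 0.178 and quartiles of 0.0833 and 0.335. It was under 0.1 in 147 regions and 0.4 or more in 69. Each repeat was at or below 0.5 in 449 of the 480 regions, while 22 were above it in repeat 1 and 9 in repeat 2. Just inside the threshold, chr3:15435501-15436000 scored 240 and 100 in wild type and 105 and 56 in nrpe1, a mean ratio of 0.499. Just outside it, chr2:1398001-1398500 scored 256 and 186 in wild type and 146 and 80 in nrpe1, a mean ratio of 0.5002. When regions were chosen on repeat 2 alone, all 504 of them scored below wild type in repeat 1 of nrpe1, with a median ratio of 0.217. When they were chosen on repeat 1 alone, all 470 scored below wild type in repeat 2, with a median ratio of 0.149. In both cases the regions with a ratio of 0.5 or less in the repeat that had not been used are the 449 counted above. That count is the same in both cases by construction.

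The members were spread over every flank, from 34.9% of the listed regions in the right flank of chromosome 2 (44 of 126) to 66.7% in the right flank of chromosome 1 (60 of 90). They became more frequent away from the core, the stretch next to the centromere that bounds each flank. Within 0.5 Mb of the core's edge 96 of 308 flank regions were members (31.2%), and from 1.5 to 2 Mb 133 of 178 were (74.7%). The 480 regions formed 375 runs of adjoining windows, and 293 stood alone. The longest run, chr5:8744501-8746500, covered 4 windows beside AT5G25230 and AT5G25240. Its windows scored 198 to 481 in repeat 1 of wild type and 168 to 400 in repeat 2, against 78 to 96 and 42 to 59 in nrpe1. All 4 of its windows were called lower in arid2/3/4 and in hda6 and none in epcr1/2.

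Low GC content set these regions apart from the 511 other flank regions, as a property that the choice did not use. Their median GC content was 29.0%, against 38.6% in the other flank regions and 34.6% in all 4213. GC content was under 30% in 264 of them (55.0%), in 53 of the other flank regions (10.4%) and in 28.5% of all regions. Their longest stretch of A and T had a median of 19 bp, against 10 bp in the other flank regions. They held a median of 14 CHG sites and 109 CHH sites on both strands, against 28 and 132, where H stands for any base but G. Members were 157 of the 168 flank regions with a GC content under 25% (93.5%) and 30 of the 225 with 40% or more (13.3%). These are descriptions over regions that share sequence and libraries, and they are given with no test.

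**Figure D2:**
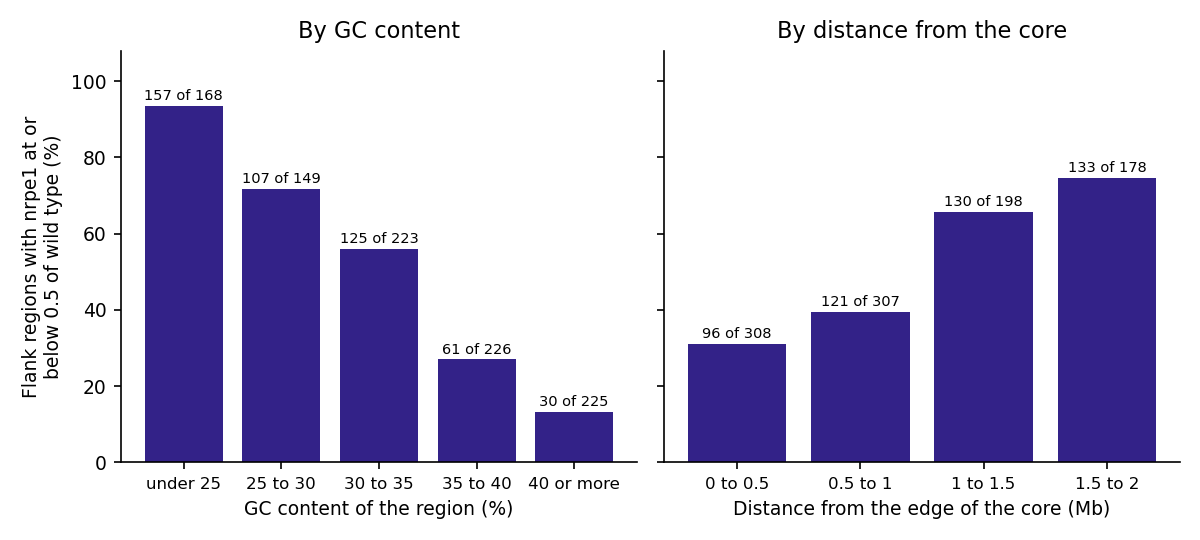
Bars give the percentage of flank regions whose nrpe1 score was at or below 0.5 of wild type, by GC content (left) and by distance in Mb from the edge of the pericentromere core (right), with counts above the bars. The share falls from 93.5% to 13.3% with rising GC content and rises from 31.2% to 74.7% with distance.

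The members lay closer to protein-coding genes than the other flank regions did. The nearest coding gene was a median of 1688 bp away, against 7442 bp. Of the members 162 (33.8%) lay within 1 kb of a coding gene, against 47 (9.20%) of the other flank regions and 27.7% of all regions. By RefSeq annotation 41 overlapped a coding gene, 73 lay in the 1 kb upstream of one, 35 overlapped a pseudogene and 331 lay elsewhere. Among the other flank regions 15, 13, 183 and 300 fell in the same classes. In the same order the classes held 8.54%, 15.2%, 7.29% and 69.0% of the members. Over all regions they held 8.33%, 12.1%, 15.1% and 64.5%, so the share overlapping a coding gene was near that of all regions. The 24-base words of the members occurred a median of 3 times in the genome, against 11 times in the other flank regions. Regions were called mostly single-copy where at least 80% of their words occur once. These were 52 members (10.8%) and 51 other flank regions (9.98%), which are close shares, and 7.1% of all regions.

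Sequence was shared widely all the same. The 480 regions fell into 422 families, in which regions are linked directly or through other listed regions. A link needed at least 50% of the words of the region with fewer words. By single words the links went further. Of the 480 regions, 443 shared at least 1 word with another member and 380 were linked through such words in a single chain. How reads that map to several places were counted is not stated, so the members are not independent of each other. The pair printed first is an example. The region chr4:6757501-6758000, 906 bp upstream of MTSSB (AT4G11060), a gene for a DNA-binding protein of mitochondria, scored 5759 and 3751 in wild type, 474 and 258 in nrpe1 and 15 and 8 in nrpd1. It scored 3391 and 4182 in arid2/3/4, 2303 and 2980 in epcr1/2, and 2870 and 3230 in hda6. Its partner chr5:10270001-10270500, 1381 bp upstream of the pseudogene AT5G28285, scored 3062 and 2003 in wild type, 257 and 145 in nrpe1, 1806 and 2234 in arid2/3/4, 1224 and 1581 in epcr1/2, and 1529 and 1693 in hda6. The ratio of the first score to the second stayed between 1.78 and 1.91 in the 10 libraries other than nrpd1. Altogether 43 listed regions shared a word with the MTSSB region, and 7 of them were members. For the 6 members other than the partner, which shared 1 to 27 words, the ratio varied more between libraries, from 4.53 to 7.90 at the member sharing 27 words to 8.32 to 62.8 at the one sharing 1. Steadiness did not simply follow the number of shared words among regions that are not members. At chr2:8854001-8854500, sharing 12 words, the ratio was 2.05 to 2.16. At chr4:7235001-7235500, sharing 44 words, it was 7.91 to 17.9. In epcr1/2 the fitted difference from wild type was -0.81 ± 0.30 (SE, log2(score + 89), limma adjusted p = 0.011) at the MTSSB region and -0.79 ± 0.26 (limma adjusted p = 0.0032) at its partner. Both calls were lost without repeat 1 of either epcr1/2 or wild type, where the differences were -0.53 and -0.50 at the MTSSB region and -0.54 and -0.48 at its partner. They were also lost with a pseudocount 10 times smaller, where the differences were -0.825 and -0.828.

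Differences were tested with limma on log2(score + 89) over all 4213 regions, with the repeat as a block. Calls were made where the Benjamini-Hochberg adjusted p was under 0.05. The arid2/3/4, epcr1/2 and hda6 comparisons share their wild-type libraries with each other and with the choice of the regions, so they are not independent of it. For this reason medians over regions chosen on the other repeat alone are given below. The differences between mutants are computed from the scores of the mutants alone, but wild type and nrpe1 chose the members and, with the other libraries, set the spread in the fit.

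In arid2/3/4, 268 of the 480 regions were lower than wild type (55.8%) and 0 were higher. Over all regions 28.9% were called lower and 38.7% higher. At an unadjusted p under 0.05 limma also called 0 members higher, and 0 to 4 were called higher under the alternatives tried. Of the 511 other flank regions, 278 were higher and 113 lower. The median fitted difference was -0.36 in the members, 0.51 in the other flank regions and -0.01 over all regions. The per-repeat medians were -0.51 and -0.19, and they were -0.50 and -0.17 in regions chosen on the other repeat alone. The count of lower members fell to 175 without repeat 1 of arid2/3/4 and to 172 with only the compared groups in the fit, and was 467 with libraries scaled to a common median.

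The 5 largest negative differences in arid2/3/4, 1 per run, were at regions of several kinds. At chr5:14123501-14124000, 139 bp upstream of AT5G35970, a gene for a P-loop nucleoside triphosphate hydrolase, the wild-type scores were 200 and 164 and the arid2/3/4 scores 36 and 38. Both arid2/3/4 scores lay below those of epcr1/2 (87 and 103) and hda6 (109 and 113) and above those of nrpe1 (8 and 4). The fitted difference was -1.10 ± 0.12 (SE, limma adjusted p = 4e-18). In a coding exon of AT4G09490, annotated as a ribonuclease H-like protein, chr4:6016001-6016500 scored 182 and 117 in wild type and 25 and 23 in arid2/3/4, a difference of -1.06 ± 0.11 (limma adjusted p = 2e-21). The pseudogene region chr5:14154001-14154500 (AT5G36010) scored 602 and 503 in wild type and 191 and 244 in arid2/3/4. The region chr4:5671001-5671500, whose nearest gene is the long non-coding RNA gene AT4G05650 at 1460 bp, scored 436 and 355 in wild type and 136 and 159 in arid2/3/4. In the coding exon region chr3:11992001-11992500 of AT3G30387 the scores were 305 and 176 in wild type and 80 and 59 in arid2/3/4. The groups did not overlap at any of these regions. Very small p-values rest on the trend of spread with score, because the prior came out with infinite degrees of freedom.

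In epcr1/2, 161 of the 480 regions were lower than wild type (33.5%) and 18 were higher (3.75%). Over all regions 14.8% were called lower and 52.2% higher. Of the 511 other flank regions, 2 were lower and 354 were higher. The median fitted difference was -0.25 in the members, 0.71 in the other flank regions and 0.48 over all regions. The per-repeat medians were -0.41 and -0.06, and they were -0.39 and -0.07 in regions chosen on the other repeat alone. Scaling to a common median and quantile normalization gave 460 and 375 lower and 2 and 3 higher, and with only the compared groups in the fit 98 were lower and 3 higher. Without repeat 1 of epcr1/2 or of wild type, 102 and 104 members were lower. Without repeat 2 of epcr1/2 or of wild type, 3 and 2 were higher.

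The lowered members in epcr1/2 held less repeated sequence than the members not called. Their words had a median of 1 copy and 65.8% of them were single-copy, against medians of 6 copies and 27.7% in the members not called. Of the 52 mostly single-copy members, 42 were lower and 2 higher in epcr1/2. Most of the 52 were lower in the other mutants too, 44 in arid2/3/4 and 41 in hda6, with 0 higher in each. The contrast with the members not called was smaller or absent there. In arid2/3/4 the lower and the not called members had medians of 2 and 4 copies, and of 44.7% and 34.3% single-copy words. In hda6 these were 2 and 2 copies, and 42.6% and 42.9%. At chr2:1076001-1076500, 363 bp upstream of the hydrolase gene AT2G03550, the scores were 248 and 250 in wild type and 85 and 122 in epcr1/2, a difference of -0.82 ± 0.14 (SE, limma adjusted p = 4.1e-08). At chr4:6344001-6344500, in an exon of the SNARE-like gene AT4G10170, they were 120 and 135 in wild type and 36 and 35 in epcr1/2, a difference of -0.80 ± 0.10 (limma adjusted p = 1.5e-13). The groups did not overlap at either region.

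The 18 members higher in epcr1/2 had a median GC content of 40.5% and a median of 20.5 copies. The first of them by size were 2 exceptions in copy number, each with a median of 1 copy. The second of these 2 also had the lowest GC content of the 18, at 25.6%. At chr5:10562001-10562500, whose nearest gene is AT5G28550 at 2222 bp, the scores were 114 and 105 in wild type and 253 and 306 in epcr1/2, a difference of 0.89 ± 0.13 (SE, limma adjusted p = 2.2e-10). At chr2:5942001-5942500, 5630 bp upstream of the cytochrome P450 gene CYP705A13 (AT2G14100), they were 107 and 106 in wild type and 219 and 310 in epcr1/2, a difference of 0.84 ± 0.12 (limma adjusted p = 4.9e-11). The same region scored 20 and 24 in arid2/3/4, 19 and 30 in hda6 and 49 and 34 in nrpe1. Its epcr1/2 scores were thus the highest of the 12 libraries, and its arid2/3/4 and hda6 scores lay below those of nrpe1. The next by size, chr1:16360501-16361000, scored 383 and 199 in wild type and 502 and 519 in epcr1/2. Its call was lost under both other scalings and without repeat 2 of wild type.

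**Figure D3:**
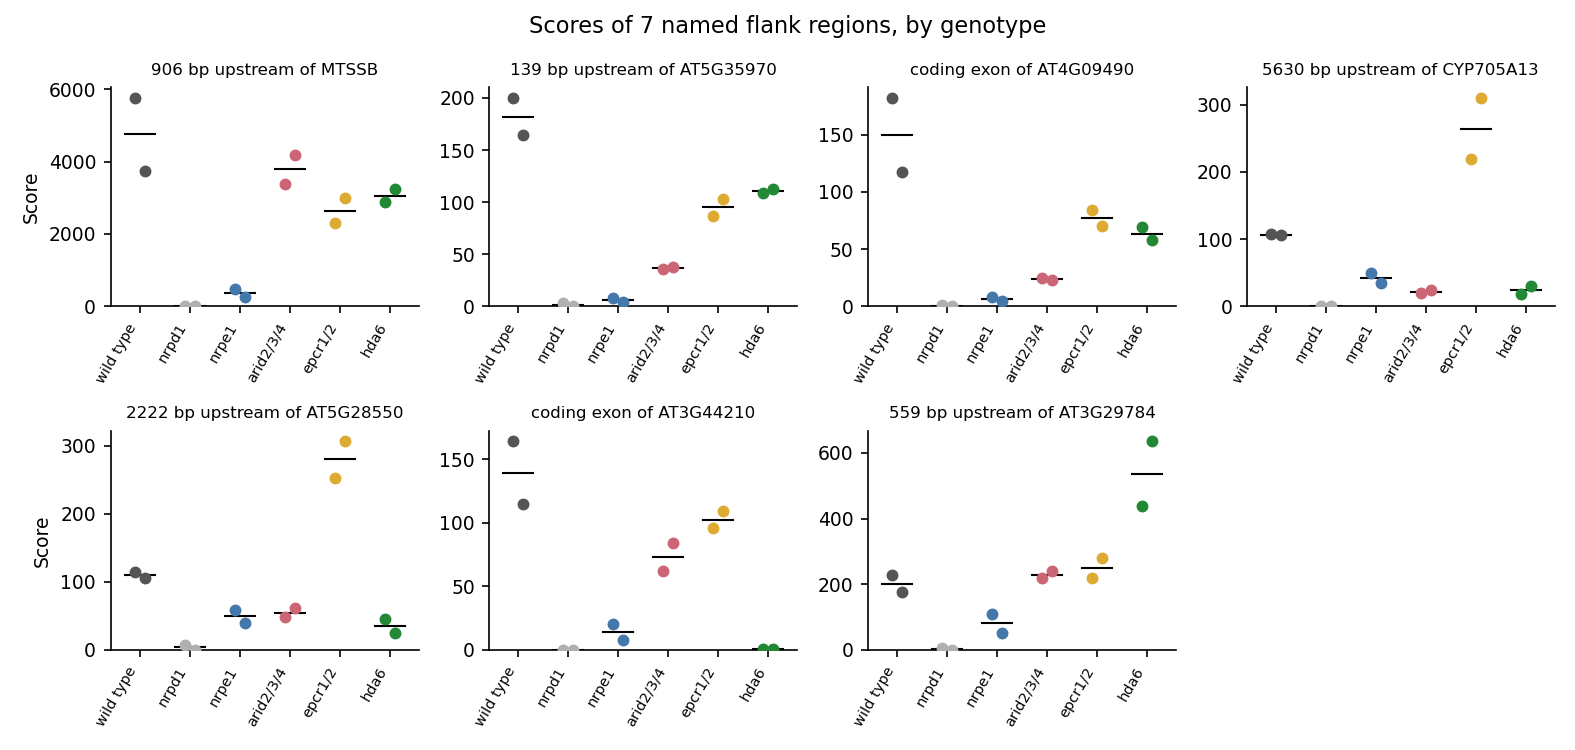
Points give the score of each repeat and lines the mean of the 2 repeats, for the 6 genotypes at 7 named regions, each axis starting at 0. The region near CYP705A13 and the one near AT5G28550 are highest in epcr1/2 (219 to 310), the region of AT3G44210 is at 1 in both hda6 libraries, and the region near AT3G29784 is highest in hda6 (438 and 635).

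In hda6, 310 of the 480 regions were lower than wild type (64.6%) and 58 were higher (12.1%). Over all regions 46.4% were called lower and 25.2% higher. Of the 511 other flank regions, 92 were lower and 272 were higher. The median fitted difference was -0.44 in the members, 0.44 in the other flank regions and -0.33 over all regions. The per-repeat medians were -0.53 and -0.30, and they were -0.52 and -0.29 in regions chosen on the other repeat alone. Without repeat 1 of hda6, repeat 2 of hda6 or repeat 1 of wild type, 178, 206 and 184 members were lower. The count of higher members rested on single libraries, since it was 1 without repeat 2 of wild type, 7 without repeat 1 of hda6 and 15 without repeat 2 of hda6.

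In hda6, 3 of the 480 regions scored under 10 in both libraries, against 42 in both nrpe1 libraries. At one of them, chr3:15916001-15916500 in a coding exon of AT3G44210, the scores were 164 and 115 in wild type, 62 and 84 in arid2/3/4, 96 and 109 in epcr1/2, 1 and 1 in hda6, and 20 and 8 in nrpe1. The hda6 difference was -1.34 ± 0.11 (SE, limma adjusted p = 5.1e-34), and the hda6 scores lay below those of nrpe1. At chr1:17560501-17561000, 170 bp downstream of the protease inhibitor gene SERPIN1 (AT1G47710), wild type scored 136 and 145 and hda6 14 and 23. The hda6 score was below that of nrpe1 in both repeats in 6 regions, the arid2/3/4 score in 2 and the epcr1/2 score in 0. The regions were chosen for a low nrpe1 score, so the counts set beside nrpe1 here depend on that choice. Their shares over all regions are not given, so they are not read as a property of the members or of the mutants.

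The regions higher in hda6 differed in sequence from those that were lower. The 58 higher members had a median GC content of 37.2% and a median of 17 copies, and lay a median of 6638 bp from a coding gene. The 310 lower members had a median GC content of 25.4%, 2 copies and a distance of 1327 bp. In the other flank regions the contrast ran the same way, so it was not particular to the members. There the 272 regions higher in hda6 had medians of 40.6% GC, 17 copies and 11640 bp. The 92 lower ones had medians of 33.4% GC, 1 copy and 3947 bp. Of the 73 members upstream of a coding gene, 64 were lower and 1 higher, and of the 41 that overlap a coding gene, 29 were lower and 0 higher. Of the 35 pseudogene members 13 were lower and 8 higher. The largest rise was at chr3:11689001-11689500, 559 bp upstream of the pseudogene AT3G29784, where wild type scored 227 and 175, arid2/3/4 218 and 239, epcr1/2 219 and 281, and hda6 438 and 635. Its hda6 scores lay above all others, with a difference of 1.10 ± 0.18 (SE, limma adjusted p = 3.9e-08). The next by size were 0.64 to 0.66, at regions in or next to the pseudogenes AT2G13830, AT5G34849, AT1G36720 and AT3G30802, and the calls of all 4 were lost without repeat 2 of wild type.

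GC content moved with the differences from wild type. With a GC content under 25%, 143 of 157 members were lower in hda6 and 0 higher, and with 40% or more, 5 of 30 were lower and 16 higher. In arid2/3/4, 114 of 157 and 4 of 30 were lower in the same bins. In epcr1/2, 44 of 157 were lower and 0 higher in the lowest bin, and 3 of 30 were lower and 14 higher in the highest. Spearman's rho between GC content and the fitted difference, across the 480 regions of shared libraries and shared sequence, was 0.51 in hda6, 0.39 in arid2/3/4 and 0.21 in epcr1/2. The wild-type medians of these bins were 256 and 240 in the lowest and 261 and 174.5 in the highest, and the medians of the nrpe1 ratio were 0.149 and 0.431. The part of base composition or of the nrpe1 ratio in the differences was not tested.

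**Figure D4:**
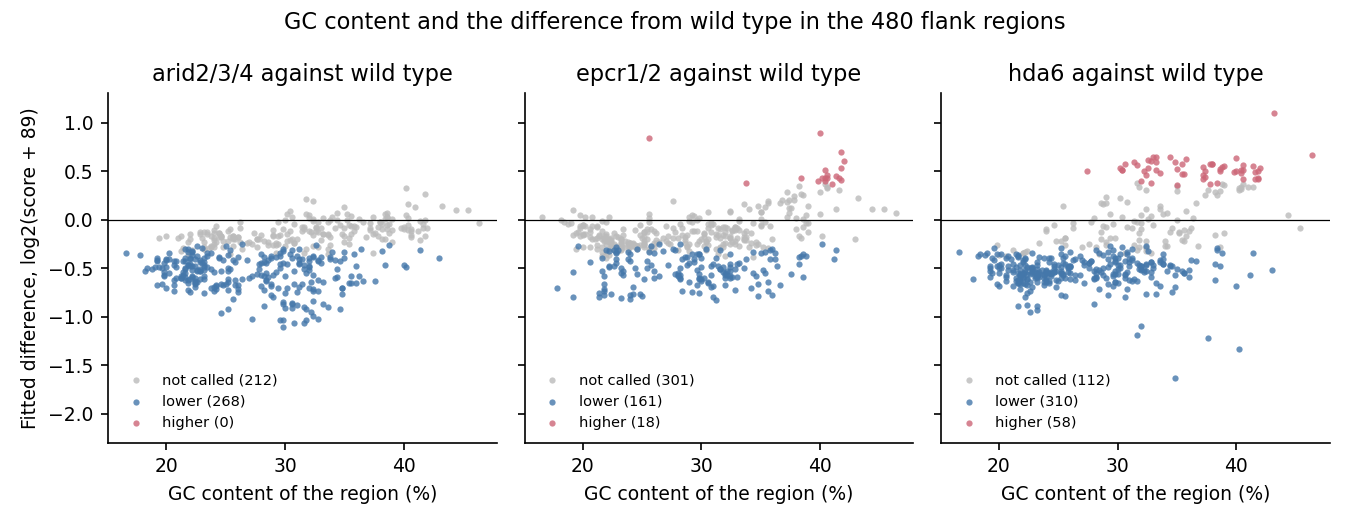
Each point is 1 of the 480 regions, with its GC content (%) and its fitted difference from wild type on the log2(score + 89) scale in arid2/3/4, epcr1/2 and hda6, coloured by its limma call. The hda6 points called higher lie almost wholly above a GC content of 30% (57 of 58), and 222 of the 310 called lower lie under it.

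The counts were also read at like GC content. Between 30% and 35% GC, 48 of 125 members (38.4%) and 0 of 98 other flank regions were lower in epcr1/2, and 1 and 43 were higher. In the same bin 69 members (55.2%) and 42 others (42.9%) were lower in arid2/3/4, and 68 members (54.4%) and 27 others (27.6%) were lower in hda6. Between 25% and 30% GC the shares lower in arid2/3/4 were close, at 61.7% of 107 members and 59.5% of 42 others. Under 25% GC they were 72.6% of 157 members and 90.9% of 11 others, with median differences of -0.43 and -0.65. In the bins from 35% to 40% and from 40% they were 24.6% against 17.6% and 13.3% against 3.59%. In hda6 a larger share of members than of others was lower in all 5 bins, from 91.1% against 72.7% under 25% GC to 16.7% against 7.18% at 40% or more. In epcr1/2, 0 others were lower in 4 of the 5 bins, and 2 of 42 were between 25% and 30%. The choice of members on the same wild-type libraries bears on these counts too, so they are given with no test.

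Between the PEAT mutants, 86 members were lower in arid2/3/4 than in epcr1/2 and 14 were higher, against 23.6% and 6.84% of all regions. These shares of the members, 17.9% and 2.92%, were both below the background. The median fitted difference was -0.12 in the members and -0.08 over all regions, and under both other scalings it turned to 0.07 in the members. With only the compared groups in the fit 206 were lower and 39 higher. With libraries scaled to a common median 145 were higher and 46 lower, and with quantile normalization 50 and 11, so the direction depends on scaling. Without repeat 1 of arid2/3/4 or repeat 2 of epcr1/2, 24 and 8 were lower, and without repeat 2 of arid2/3/4 or repeat 1 of epcr1/2, 2 were higher. The largest difference was at the CYP705A13 region, at -1.66 ± 0.12 (SE, limma adjusted p = 3.4e-42), and then at the AT5G28550 region, at -1.36 ± 0.13 (limma adjusted p = 5.9e-24). At chr4:5557001-5557500, 385 bp upstream of AT4G08691, the scores were 20 and 18 in arid2/3/4, 125 and 128 in epcr1/2 and 117 and 112 in wild type. The difference between the PEAT mutants was -1.0 ± 0.11 (limma adjusted p = 8.3e-18). In the other direction, chr5:14502001-14502500, 652 bp upstream of the pseudogene AT5G36825, scored 164 and 223 in arid2/3/4 and 97 and 102 in epcr1/2, a difference of 0.58 ± 0.14 (limma adjusted p = 0.00043). That call was lost without repeat 2 of arid2/3/4, where the difference was 0.39.

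Against hda6, 94 members were lower in arid2/3/4 and 20 were higher, where 8.71% of all regions were lower and 34.5% higher. With the scores as deposited the members thus had 19.6% lower and 4.17% higher, the opposite balance to all regions. In the other flank regions 85 were lower and 112 higher. The median fitted difference was -0.04 in the members and 0.25 over all regions. Without repeat 1 of arid2/3/4, repeat 1 of hda6 or repeat 2 of hda6, 22, 30 and 35 members were lower, and without repeat 2 of arid2/3/4, repeat 1 of hda6 or repeat 2 of hda6, 6, 8 and 9 were higher. The median turned to 0.05 without repeat 1 of arid2/3/4. Scaling to a common median gave 6 higher and 280 lower, and quantile normalization 5 and 208. Over all regions these scalings turned the median log2 ratio, as a mean of the repeats, from 0.25 to -0.04 and -0.05. The direction over all regions therefore depends on scaling. With only the compared groups in the fit, 96 were higher and 132 lower. The largest negative difference was at the AT3G29784 region (-0.96 ± 0.18 SE, limma adjusted p = 5.7e-07). At chr1:13259001-13259500, 3431 bp upstream of the pumilio gene PUM10 (AT1G35750), arid2/3/4 scored 92 and 97 and hda6 262 and 214, beside 291 and 134 in wild type. The AT3G44210 region was higher in arid2/3/4, by 0.84 ± 0.11 (limma adjusted p = 1.4e-14).

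In epcr1/2 against hda6, 103 members were higher and 48 lower, where 50.6% of all regions were higher and 3.58% lower. In the members these were 21.5% and 10.0%. The median fitted difference was 0.07 in the members, 0.35 in the other flank regions and 0.38 over all regions. Scaling to a common median and quantile normalization turned the median of the members to -0.39 and -0.32, with 347 and 269 lower and 9 and 5 higher, so the direction depends on scaling. With only the compared groups in the fit 150 were higher and 79 lower. Without repeat 2 of epcr1/2, repeat 1 of hda6 or repeat 2 of hda6, 26, 35 and 33 were higher, and without repeat 1 of epcr1/2 or of hda6, 19 and 18 were lower. The CYP705A13 region differed by 1.63 ± 0.12 (SE, limma adjusted p = 3.8e-40) and the AT5G28550 region by 1.57 ± 0.13 (limma adjusted p = 1.4e-31). The AT3G44210 region was higher in epcr1/2 by 1.09 ± 0.11 (limma adjusted p = 9.7e-23), and the AT3G29784 region was lower by a difference of -0.87 ± 0.18 (limma adjusted p = 4.3e-06).

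**Figure D5:**
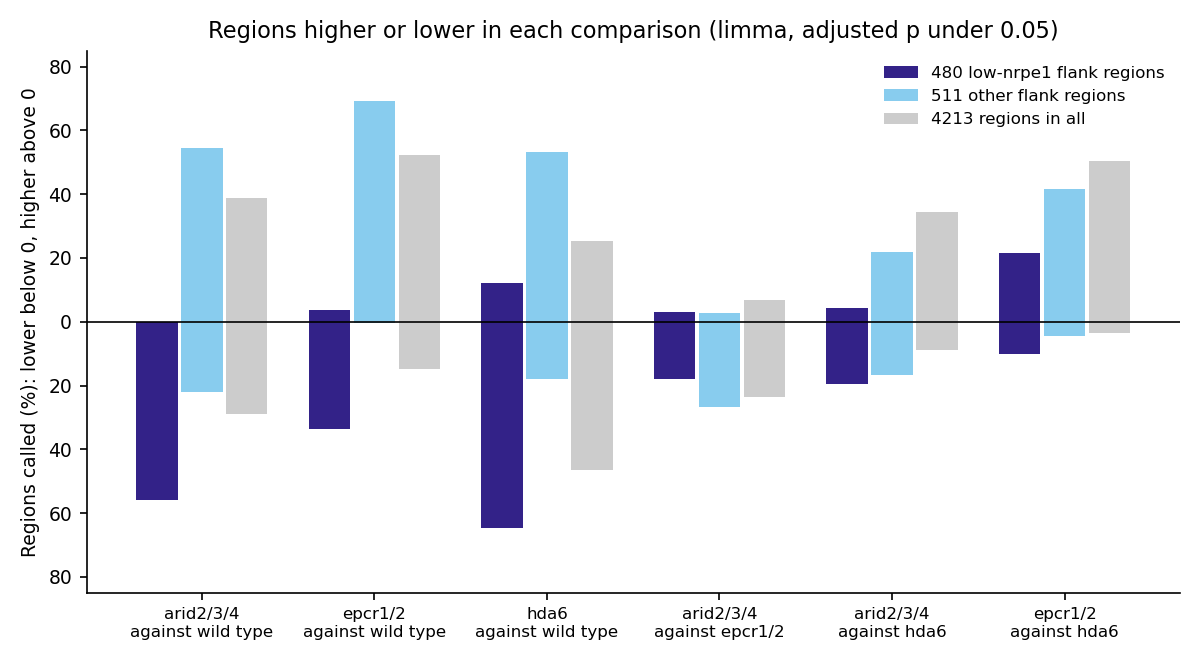
Bars give the percentage of regions called higher (above 0) and lower (below 0) in 6 comparisons, in the 480 members, the 511 other flank regions and all 4213 regions. More members are called lower than higher against wild type in all 3 mutants (55.8%, 33.5% and 64.6% lower), while more of the other flank regions are called higher than lower.

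Set against all regions, the members stayed on the low side of wild type in the 3 mutants under each of the scalings tried. Their median log2 ratio to wild type minus that of all regions was -0.37 ± 0.02 in arid2/3/4, -0.70 ± 0.07 in epcr1/2 and -0.12 ± 0.04 in hda6 (SD, n = 2 repeats). These differences use the wild-type libraries that chose the members, so they are not independent of the choice. Scaling to a common median multiplies a library by a single factor. It can therefore move these differences only through the pseudocount, and their sign under it is no further support. With libraries scaled to a common median the same differences were -0.35, -0.65 and -0.13, and with quantile normalization -0.51, -0.77 and -0.15. Those scalings moved the median ratio of all regions from 0.02 to -0.27 and -0.05 in arid2/3/4 and from 0.46 to -0.08 and 0.10 in epcr1/2, and in hda6 from -0.29 to -0.30 and -0.15. Between mutants the difference from all regions was -0.295 ± 0.0018 for arid2/3/4 against hda6 and -0.33 ± 0.02 for epcr1/2 against hda6 as deposited, and -0.25 to -0.16 and -0.25 to -0.23 under the other scalings. For arid2/3/4 against epcr1/2 it was -0.04 as deposited, -0.07 and 0.01 otherwise.

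Of the members, 2 overlap annotated microRNA genes. The region chr1:16116501-16117000 holds the mature sequence of MIR5645d (AT1G07137, chr1:16116608-16116627, plus strand), in which capitals mark the seed.
MIR5645d: aUUUGAGUcaugucguuaag
It scored 284 and 179 in wild type, 1 and 0 in nrpd1, 86 and 45 in nrpe1, 137 and 166 in arid2/3/4, 150 and 196 in epcr1/2, and 203 and 223 in hda6. Its difference in arid2/3/4 was -0.40 ± 0.16 (SE, limma adjusted p = 0.022), and in epcr1/2 it was -0.28 ± 0.16 (limma adjusted p = 0.12). The region chr4:5321501-5322000 overlaps MIR5645e (AT4G05455) outside its mature sequence, and scored 209 and 143 in wild type, 1 and 0 in nrpd1, 66 and 36 in nrpe1, 86 and 107 in arid2/3/4, 104 and 142 in epcr1/2, and 162 and 178 in hda6. It was lower in arid2/3/4, with a difference of -0.51 ± 0.14 (SE, limma adjusted p = 0.00091), and in epcr1/2, with -0.32 ± 0.14 (limma adjusted p = 0.043). In nrpd1 both were as low as other members, and in hda6 both scores of each lay within the range of its wild-type scores, with differences of -0.07 ± 0.16 and -0.02 ± 0.14 (SE, limma adjusted p = 0.71 and 0.89).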

How the data were processed

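Small RNA libraries of 10-day-old seedlings, grown at 22 °C in cycles of 16 h light and 8 h dark, were grouped by genotype and repeat from their titles. No label tells whether a repeat is another culture, so a p-value covers only the spread among these libraries, possibly a technical one. Each repeat has its own deposited table, in which every library has a whole-number score per 500 bp region. In 5 of the 12 libraries the whole numbers recur with a regular period, so the scores were taken as values that the authors normalized and rounded, not as read counts. Reads were mapped with Bowtie 0.12.2 and the TAIR10 build was used, per the submitters' processing notes. The scaling, the read sizes counted, the counting of reads that map to several places and the way regions were listed are not stated in those sources. Depth is therefore unknown, and regions without small RNAs in wild type are not analysed here, because wild type scored at least 95 in every region listed in both tables.

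Start coordinates were changed from counting from 0 to counting from 1. Genes, sequence and copy numbers of 24-base words came from RefSeq TAIR10.1, and annotated pseudogenes may include transposon remnants, which that annotation does not class apart. A family was made of regions with 50% or more of their words in common.

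The models were fitted by limma 3.58.1 (R 4.3.3) on log2(score + 89). The pseudocount of 89, the lower quartile of the non-zero scores, makes changes of low regions look smaller than they are. All 12 libraries entered the fit, with genotype and repeat as terms, a trended prior and 5 residual degrees of freedom, and Benjamini-Hochberg adjustment over the 4213 regions of each of 6 comparisons. The fit was tested on simulated data. The repeat was a block because each repeat has its own table. Over the 15 pairs of genotypes, differences between repeats correlated from -0.16 to 0.64, and 9 pairs were over 0.1. Tables and figures were made with Python 3.11.15.

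The members, the lists and the comparisons were chosen with earlier results of these data known. Regions named are the 3 with the highest wild-type score, the 5 called members with the largest difference in each direction of each comparison (1 per run), those nearest the threshold, the longest run and those overlapping microRNA genes. Values are given for part of the regions that this rule picks, and 1 result is not reported here. The regions that share words with the MTSSB region were described after their values were seen. Alternatives were the block, the pseudocount, a filter on low scores, 2 scalings, no trend, only the compared groups, each library left out, the choice of members and 1 region per family.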

Additional observations from a re-analysis of the deposited data

How the results depend on the processing

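Counts of members are given as higher and lower unless said otherwise. With libraries scaled to a common median they were 0 and 467 in arid2/3/4 against wild type, 2 and 460 in epcr1/2 and 82 and 339 in hda6, and 145 and 46 in arid2/3/4 against epcr1/2, 6 and 280 in arid2/3/4 against hda6, and 9 and 347 in epcr1/2 against hda6. Quantile normalization gave 4 and 347 in arid2/3/4, 3 and 375 in epcr1/2 and 84 and 253 in hda6 against wild type, and between mutants, in the order above, 50 and 11, then 5 and 208, then 5 and 269. These scalings turned the median difference of the members to 0.065 and 0.068 in arid2/3/4 against epcr1/2 and to -0.39 and -0.32 in epcr1/2 against hda6. They also turned the region chr4:6536501-6537000 to -0.087 and -0.10 in epcr1/2 against wild type, where it had been called higher. Both scalings centre the libraries by construction, so they do not settle the direction of a whole library.

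With only the compared groups in the fit, counts for the 6 comparisons in the order above were 0 and 172, then 3 and 98, then 45 and 284, then 39 and 206, then 96 and 132, then 150 and 79. With only regions above the lower quartile of mean score, which leaves fewer members to test, they came to 0 and 95, then 16 and 41, then 57 and 128, then 3 and 48, then 8 and 76, then 39 and 40. A pseudocount 10 times smaller gave 0 and 224, then 7 and 124, then 39 and 260, then 8 and 54, then 13 and 73, then 60 and 36. A pseudocount 3 times larger gave 32 members higher in arid2/3/4 against hda6 (20 as reported), and its other counts lay within 1.5 times of those reported. Without a trend 67 were higher in epcr1/2 against hda6 (103 as reported), and with members at or below the threshold in each repeat 11 were higher in epcr1/2 against wild type (18 as reported). The other counts under these last 2 settings, and all under 1 region per family, lay within 1.5 times. Without the replicate block, counts were 0 and 266, then 16 and 156, then 58 and 307, then 12 and 84, then 19 and 93, then 96 and 47, so the pairing of the repeats moved none by 1.5 times.

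Leaving out 1 library at a time, where the lone sample of a group is assumed to vary like the others, gave 0 to 0 members higher and 175 to 288 lower in arid2/3/4 against wild type. The ranges were 2 to 25 and 102 to 197 in epcr1/2 against wild type, and 1 to 64 and 178 to 337 in hda6 against wild type. They were 2 to 13 and 8 to 94 in arid2/3/4 against epcr1/2, 6 to 28 and 22 to 80 in arid2/3/4 against hda6, and 26 to 118 and 18 to 45 in epcr1/2 against hda6. The median difference of the members ranged from -0.13 to 0.052 in arid2/3/4 against hda6 and from -0.047 to 0.19 in epcr1/2 against hda6. Among the fitted values of named regions and the medians, 643 kept their direction and their side of the threshold under an alternative, 46 kept the direction only, 14 medians moved by more than the spread between repeats, and 8 changed direction. The causes of these changes were not tested. Regions chosen on the other repeat alone were an alternative added after the data were seen. Depth is unknown and limits every low score. With 2 libraries a group, the calls rest on a spread shared over regions.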
